A study of Mus musculus with 15 samples.

Results

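The nuclear genes of oxidative phosphorylation were taken by gene name from a table of hypothalamic RNA levels: names that begin with Nduf, Uqcr or Atp5, the Cox4 to Cox8 names, and Sdha, Sdhb, Sdhc, Sdhd and Cyc1. Of 24831 gene names 92 met this rule, and 91 of them averaged 1 RPKM or more across the groups (RPKM is a read count per kilobase of transcript length, scaled to the mapped reads of a library), as did 17481 names in all. Hypothalamic total RNA from outbred CD-1 mice aged 15 postnatal days was sequenced in 15 samples. They form the groups Control, PGM, PGF, HM and also HF, with 3 samples per group. The series title concerns thyroid hormone and the F2 generation. The labels give the groups as these codes, with no treatment, genotype, dose or parental line for any of them, and the codes are used here as they stand. All groups share the strain, age and tissue. The deposited values were the mean of each group, so every value below is 1 mean without an SD. No difference could be set against the spread between mice, no p-value could be computed, and sequencing depth is unknown.

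Oxidative phosphorylation is the last stage of cellular respiration, in which electrons from NADH and succinate pass along complexes of the inner mitochondrial membrane to oxygen and the proton gradient built on the way drives ATP synthase. Complexes I, III, IV and V are assembled from nuclear-encoded subunits, made in the cytosol and imported, and a small set of core subunits encoded in the mitochondrial genome, whereas complex II is wholly nuclear. Neurons depend on this pathway for most of the ATP that ion pumping and synaptic transmission consume.

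Most members were somewhat higher in PGM and in PGF than in Control, and by little. In the measure used throughout, the difference of log2(mean RPKM + 0.5), the median over the 91 members was 0.16, 0.14, 0.03 and 0.08 in PGM, PGF, HM and HF, each against Control, where the median over all 17481 genes was 0.005, -0.03, -0.03 and 0.02 in the same order. The 4 comparisons share Control, so their differences are not independent of each other. Measured from HF in place of Control, the median over members was 0.088 in PGM and 0.071 in PGF. Their summed level was 30214, 34003, 33634, 30879 and 31719 RPKM in Control, PGM, PGF, HM and HF. PGM and PGF thus lay at 113% and 111% of the Control sum, HM at 102% and HF at 105%. The members' sums thus differed by small percentages.

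The names were checked against RefSeq and roles known for their products. They comprised 40 names of complex I (36 subunits and the assembly factors Ndufaf1 to Ndufaf4), 4 of complex II, 10 of complex III, 17 of complex IV, 15 of complex V and 5 others. Ndufa4, named for complex I, was counted in complex IV, where its product is a subunit. Uqcr is a RefSeq synonym of Uqcr11, so the table lists that gene under 2 names. Of the 5 others, Cox4nb is Emc8 in RefSeq, a gene of the endoplasmic reticulum membrane complex that lies beside Cox4i1, Atp5s and Atp5sl are Dmac2l and Dmac2, Cox7a2l is a factor of respiratory supercomplexes, and Ndufa4l2 is a paralog of Ndufa4. Cox8c met the rule by name and was left out by the minimum, with 0.05 RPKM in Control and values listed at 0 in the other groups. Just inside the minimum were Cox8b, with a mean of 1.02 RPKM, and Cox7b2, with 1.53. A position in GENCODE M21 (GRCm38, the assembly called mm10) was found for 91 of the 92 names, all on nuclear chromosomes.

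The members were among the most abundant transcripts of this tissue. Their median level over the groups was 276 RPKM against 18.8 over all kept genes, and 75 of the 91 had a mean of at least 100 RPKM. The highest was Atp5b, the catalytic beta subunit of ATP synthase (chromosome 10, 128083273 to 128090391), at rank 51 of the 17481 genes, and Cox4i1 (chromosome 8, 120668222 to 120674207) stood at rank 58. Across the groups the RPKM of 88 members stayed within a 2-fold range and of 79 within a 1.2-fold range. Per length, the median level was 246 RPKM over the names of complex I, 282 for complex II, 377 for complex III, 467 for complex V and 473 for complex IV. Genes outside the main band were the assembly factors of complex I, between 19.4 and 51.4 RPKM, and the tissue-restricted isoforms of complex IV, between 1.02 and 14.6 RPKM.

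**Figure D1:**
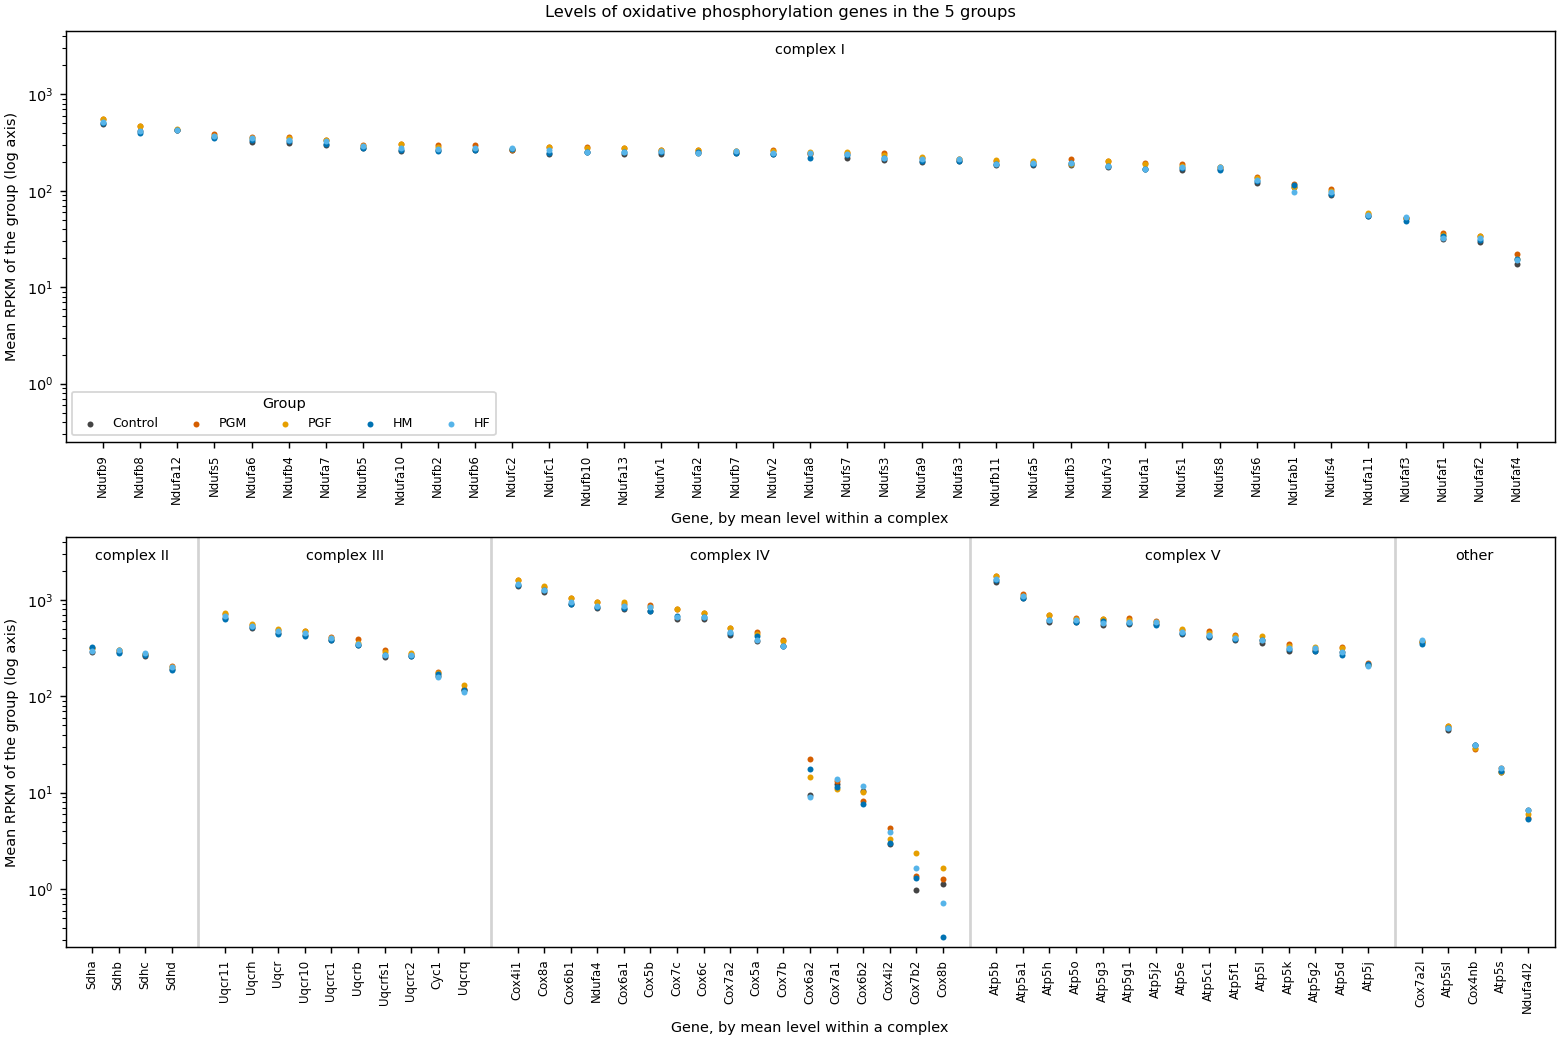
Mean RPKM of each member but 1 in the 5 groups (points, 1 colour per group) on a log axis, with genes ordered by mean level within each complex, complex I in the upper panel and the other complexes in the lower. Most genes lie between 100 and 2000 RPKM with the points of the 5 groups nearly on top of each other, and the isoforms at the right end of complex IV lie far below and spread more.

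Several members carry, at their gene starts, the letters bound by textbook regulators of respiratory genes. Promoters from RefSeq (GRCm38.p6, 250 bases before to 50 after each start) matched 74 members, 16 had no entry, and Uqcr was not counted beside Uqcr11. Both strands were searched for GCGCANGCG, the core of the site of nuclear respiratory factor 1 (NRF1), CCGGAAGT, a site of ETS factors such as GABP, TCAAGGTCA, the site of estrogen-related receptors (ERR), and AAGATGGCG, a site of YY1. The NRF1 letters were present in 21 of the 74 members, 28.4%, against 14% of kept genes (1611 of 11507) and 6.25% of 32851 promoter windows. The YY1 letters were in 8 members, 10.8%, against 3.15% of kept genes and 1.40% of all windows, and the ERR letters in 2, Atp5g3 and Sdhd, 2.70% against 0.330% of kept genes and 0.423% of windows. The ETS letters were in 5 members, 6.76%, against 8.05% of kept genes and 3.89% of windows. None of the 4 motifs was found in 43 members, and 5 members held at least 2 of them. The shares are descriptions of letters in these windows, not of binding.

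The stretches below are shown because each holds 1 such match in the 120 bases upstream of the annotated start of an abundant member, with the match in capitals and the rest in lower case, written 5′ to 3′ on the strand of the gene, which is the minus strand for all 4. They are, in GRCm38.p6, Ndufs5 of complex I at chr4:123718203-123718322 with an NRF1 match, Uqcr11 of complex III at chr10:80406831-80406950 with an ETS match, Cox6a1 of complex IV at chr5:115348982-115349101 with an NRF1 match and Atp5h of complex V at chr11:115419963-115420082 with an NRF1 match.
Ndufs5: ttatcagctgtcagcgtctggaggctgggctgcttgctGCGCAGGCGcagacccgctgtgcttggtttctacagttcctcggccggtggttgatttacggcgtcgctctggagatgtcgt
Uqcr11: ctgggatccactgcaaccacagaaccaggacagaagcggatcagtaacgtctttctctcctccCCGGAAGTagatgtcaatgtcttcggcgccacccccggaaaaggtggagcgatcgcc
Cox6a1: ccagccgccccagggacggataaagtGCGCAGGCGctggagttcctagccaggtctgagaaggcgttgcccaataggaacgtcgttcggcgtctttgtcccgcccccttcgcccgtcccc
Atp5h: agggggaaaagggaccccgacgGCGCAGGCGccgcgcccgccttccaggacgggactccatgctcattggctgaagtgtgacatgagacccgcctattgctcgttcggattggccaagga
Ndufs5, Cox6a1 and Atp5h thus hold the same 9 letters on the strand shown, at different distances from their starts. Over the whole window searched, and outside the stretches shown, Uqcr11 also held the NRF1 letters and Atp5h the ETS letters. Ndufs5 was at 357, 386, 367, 349 and 369 RPKM in Control, PGM, PGF, HM and HF, Cox6a1 at 807, 904, 947, 815 and 858, and Atp5h at 593, 696, 688, 614 and 620. Members with the NRF1 letters had a median difference from Control of 0.15 in PGM and 0.15 in PGF, and members with a promoter but without them 0.17 and 0.14, so those with these letters lay lower in PGM and higher in PGF.

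PGM against Control asked how the pathway stood in this group. Of the 91 members 86 were higher in PGM and 5 lower, where 50.9% of all genes were higher and 48.8% lower, and 54 were at least 1.1-fold higher with 2 at least 1.1-fold lower, where 24.4% and 25.4% of all genes were. A difference of 1.5-fold was reached by 1 member, Cox6a2, where 2.34% of all genes were that much higher and 2.28% that much lower. In PGF, 84 members were higher and 7 lower than in Control against a background of 44.2% and 55.6%, and 47 were at least 1.1-fold higher with 1 at least 1.1-fold lower against 19.1% and 29.8%. The 1 member at least 1.5-fold higher in PGF was Cox7b2, where 2.16% of all genes were and 1.88% were that much lower. At least 1.2-fold higher were 6 members in PGM and 4 in PGF, where 10.3% and 8.25% of all genes were. The pathway therefore differed from Control by small amounts in most of its genes, not by large amounts in a few.

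In HM, 68 members were higher and 23 lower than in Control, where 39.8% of all genes were higher and 59.9% lower, and with each column centred on the median of all genes 81 were higher. At least 1.1-fold higher were 5 and lower 4 members, 5.49% and 4.40% of the members, against 11.2% and 24.1% of all genes. In HF, 84 members were higher and 7 lower against a background of 58.6% and 41.1%, and after quantile normalization 72 were higher. At least 1.1-fold higher were 6 and lower 2 members, 6.59% and 2.20%, against 13.0% and 8.59% of all genes. Members at least 1.1-fold from Control were thus a smaller share than among all genes in both groups. All genes lay lower in level, with a median of 18.8 RPKM against 276, and shares among genes of like level are not given here. At least 1.2-fold higher were 2 members in HM and 2 in HF, against 4.09% and 3.96% of all genes. At 1.5-fold, HM had 1 member higher and 1 lower (Cox6a2 and Cox8b) against 0.675% and 0.864% of all genes, and HF had none in either direction against 0.658% and 0.172%.

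**Figure D2:**
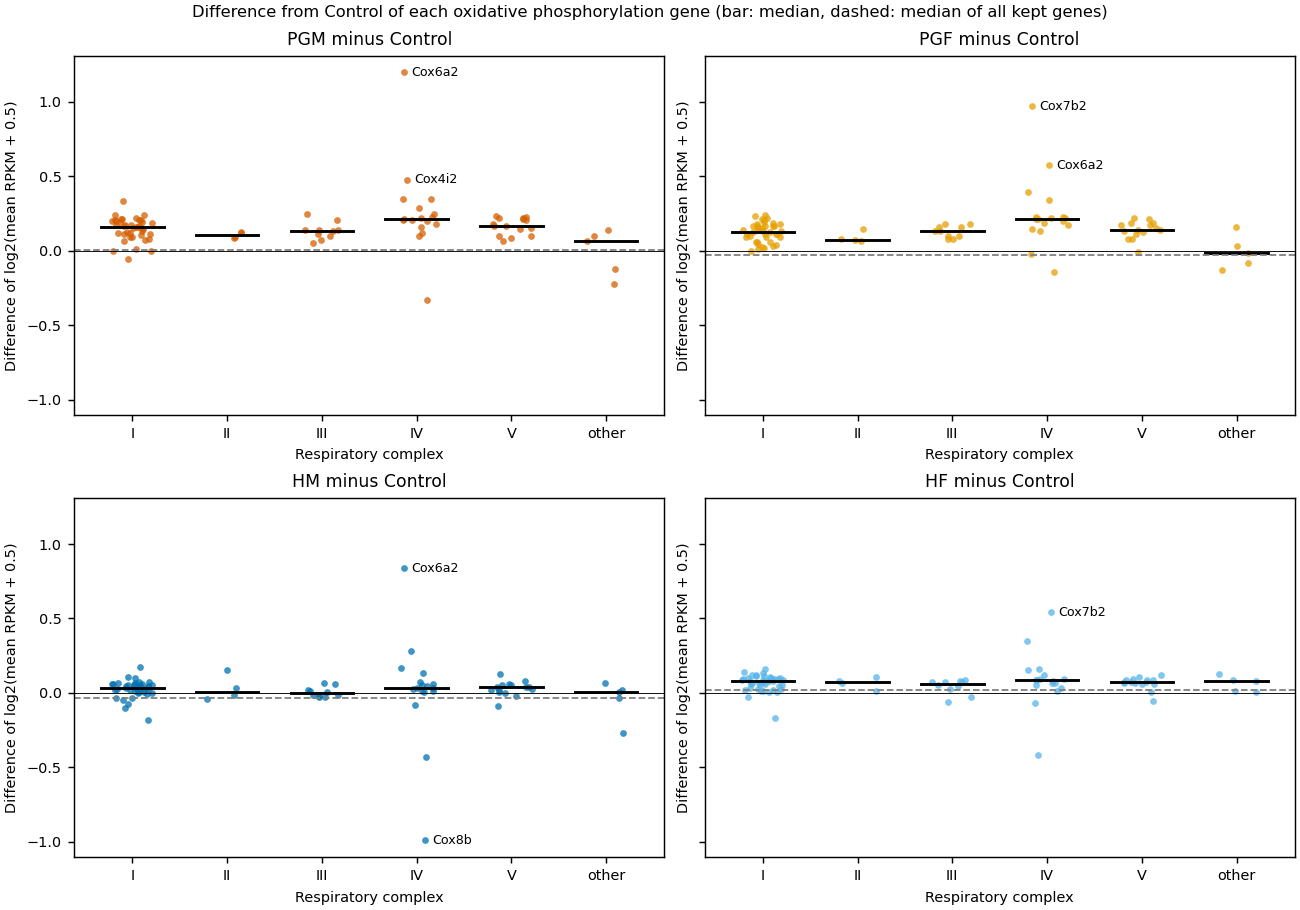
Difference of log2(mean RPKM + 0.5) from Control for each member (points) by respiratory complex, 1 panel per group, with the median of the complex as a bar and the median of all kept genes as a dashed line. In PGM and PGF nearly all points of complexes I to V lie above the dashed line with complex IV highest, and in HM and HF they lie closer to it, while the labelled isoforms of complex IV stand apart.

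Complex I takes electrons from NADH to ubiquinone and pumps protons. Its 40 names had a median difference from Control of 0.16, 0.13, 0.03 and 0.08 in PGM, PGF, HM and HF, and 24 and 18 of them were at least 1.1-fold higher in PGM and PGF. Of all genes 24.4% and 19.1% were, and 50.9% and 44.2% were higher by any amount. The 7 nuclear core subunits, which carry the flavin, the iron-sulfur clusters and the quinone site, were higher than Control in 7 of 7 in PGM and PGF, with medians of 0.15 and 0.13, and their medians were 0.05 in HM and 0.09 in HF. Ndufv1, which binds NADH and the flavin, was at 241, 267, 263, 250 and 260 RPKM in Control, PGM, PGF, HM and HF. Ndufv2, its iron-sulfur partner, was at 242, 266, 258, 243 and 244 in the same order. HM and HF were close to Control for Ndufv2 and PGM and PGF above it.

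Ndufs1, the largest iron-sulfur subunit, was at 166, 191, 181, 172 and 175 RPKM in Control, PGM, PGF, HM and HF. Ndufs3, beside the quinone site, was at 208, 246, 237, 216 and 221. Ndufs3 had the largest difference in PGM among the 7, 0.24. Ndufs7, which carries the last iron-sulfur cluster before ubiquinone, was at 218, 244, 253, 235 and 240, and Ndufs8 at 170, 178, 177, 164 and 178. Ndufs8 was the core subunit with the smallest difference in PGM and the 1 of the 7 lower in HM than in Control.

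The 29 supernumerary subunits of complex I surround this core. They had medians of 0.16 in PGM and 0.13 in PGF, with 28 and 29 of 29 higher than in Control, where 50.9% and 44.2% of all genes were. Ndufb9 of the membrane arm (chromosome 15, 58933756 to 58939488) was the most abundant, at 487, 549, 550, 503 and 516 RPKM in Control, PGM, PGF, HM and HF, and Ndufc1, also of the membrane arm, was at 238, 281, 281, 248 and 266. Ndufc1 was the member of complex I farthest above Control in HF, at 0.16. Against this direction, Ndufa8 was at 249, 240, 252, 219 and 244, the lowest of complex I in HM at -0.18, and Ndufc2 stayed between 267 and 279 in all groups. Ndufab1, the mitochondrial acyl carrier protein, was at 109, 116, 110, 113 and 96.9 RPKM, so HF was its low group, at -0.17 from Control. Ndufaf4, an assembly factor and the lowest member of complex I, was at 17.2, 21.9, 19.5, 19.5 and 19.0, with a difference of 0.33 in PGM.

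Complex II, succinate dehydrogenase, also works in the tricarboxylic acid cycle. Its 4 subunits had smaller differences than the other complexes in PGM and PGF, with medians of 0.10 and 0.08, and 0.006 in HM and 0.07 in HF. Sdha, the flavoprotein (chromosome 13, 74322254 to 74350280), was at 289, 315, 320, 321 and 291 RPKM in Control, PGM, PGF, HM and HF. Sdhb, the iron-sulfur subunit, was at 285, 303, 298, 282 and 298. These partners did not follow each other in HM and HF: HM minus HF was 0.14 for Sdha and -0.08 for Sdhb. The membrane anchors Sdhc and Sdhd were at 260, 277, 275, 266 and 281 and at 192, 208, 202, 186 and 203, and both resembled Sdhb in being lower in HM than in HF. So were 68.6% of all genes, with a median of -0.05, and Sdha was the subunit that went against this shift.

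Complex III passes electrons from ubiquinol to cytochrome c. Its 10 names had medians of 0.14, 0.13, -0.001 and 0.06 in PGM, PGF, HM and HF. Higher than in Control were 10 of 10 in PGM and PGF and 5 of 10 in HM, against 50.9%, 44.2% and 39.8% of all genes. Cyc1, cytochrome c1, was at 162, 179, 174, 169 and 159 RPKM in Control, PGM, PGF, HM and HF. Uqcrfs1, the Rieske iron-sulfur protein (chromosome 13, 30540308 to 30545362), was at 254, 302, 287, 266 and 270, and had the largest difference of the complex in PGM, 0.25. Uqcr11, a small subunit and the most abundant of the complex, was at 649, 715, 724, 637 and 682. Its row under the name Uqcr, at 447, 491, 500, 441 and 470, kept the same order at a lower level, and how reads were divided between these rows is unknown. Uqcrq, the lowest, was at 115, 119, 130, 116 and 110, with PGF as its high group.

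Complex IV, cytochrome c oxidase, reduces oxygen. Its 17 names had the largest medians of the complexes in PGM and PGF, 0.21 and 0.22. At least 1.1-fold higher were 14 of the 17 in each of these groups, against 24.4% and 19.1% of all genes. The medians were 0.03 in HM and 0.09 in HF. Among the 11 widely expressed subunits, 11 were at least 1.1-fold higher in PGM and 10 in PGF, and their differences from Control ran from 0.006 to 0.17 in HM and from 0.01 to 0.12 in HF. No test of complex IV against the other complexes was possible, since its genes are not replicates. After quantile normalization, the median difference in PGM was 0.086 for complex I, 0.035 for complex II and 0.085 for complex III, and that of complex II in PGF was 0.032.

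Cox4i1, the subunit that binds ATP in regulation of the enzyme, was at 1374, 1609, 1594, 1433 and 1442 RPKM in Control, PGM, PGF, HM and HF. Cox7c (chromosome 13, 86044816 to 86046904) was at 627, 797, 794, 686 and 669 and had the largest difference of the widely expressed subunits, 0.35 in PGM and 0.34 in PGF. For both genes PGM and PGF lay close together and above HM and HF. Cox5a (chromosome 9, 57521274 to 57532426) was at 377, 461, 437, 423 and 386, so that here HM lay nearer to PGF than to HF. The other abundant subunits also had PGM and PGF above HM and HF: Cox6a1 has been given above, Cox6b1 was at 895, 1033, 1045, 913 and 948, and Cox8a at 1204, 1366, 1382, 1269 and 1259. Cox7a2 was at 433, 514, 507, 450 and 461.

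Subunits 4, 6a, 6b, 7a, 7b and 8 have isoforms restricted to some tissues, and those isoforms did not share an order of groups. Cox6a2, the heart and skeletal muscle form of subunit 6a (chromosome 7, 128205435 to 128206387), was at 9.55, 22.6, 14.5, 17.4 and 9.09 RPKM in Control, PGM, PGF, HM and HF. Its differences from Control, 1.2, 0.57, 0.84 and -0.07 in PGM, PGF, HM and HF, were the widest of any member with a mean above 2 RPKM in PGM, PGF and HM, but not in HF. Its order of groups was not that of Cox6a1, which was highest in PGF. Muscle markers with at least 1 RPKM, 5 genes with the actin gene Acta1 the highest, summed to 20.1, 21.1, 20.0, 20.2 and 22.1 RPKM in Control, PGM, PGF, HM and HF. Their part in the Cox6a2 values was not tested. Markers of the thalamus, which adjoins the hypothalamus, summed to 569, 826, 732, 605 and 554 RPKM in the same order of groups. HF was lowest as for Cox6a2, but PGF lay above HM, where Cox6a2 had HM above PGF. The part of the thalamus markers in the Cox6a2 values was not tested either.

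Cox6b2, the testis form, had its low values in PGM and HM, at 10.4, 8.17, 10.2, 7.59 and 11.6 RPKM in Control, PGM, PGF, HM and HF. Cox7a1, the heart and muscle form of subunit 7a, was at 12.2, 13.1, 11.02, 11.6 and 13.8, and Cox4i2, the lung form of subunit 4 that responds to oxygen, at 2.92, 4.26, 3.29, 3.0 and 3.87. Cox6b2 and Cox7a1 were higher in HF than in HM, and so were Cox4i2 and 68.6% of all genes. Cox7b2 was at 0.97, 1.37, 2.38, 1.29 and 1.64 and Cox8b at 1.13, 1.27, 1.64, 0.32 and 0.72. At levels near 1 RPKM and with unknown depth, a few reads can make such differences. The isoforms added 37.2 RPKM to a complex sum of 8297 in Control and 50.8 to 9676 in PGM, so the difference of the complex lies in its widely expressed subunits.

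**Figure D3:**
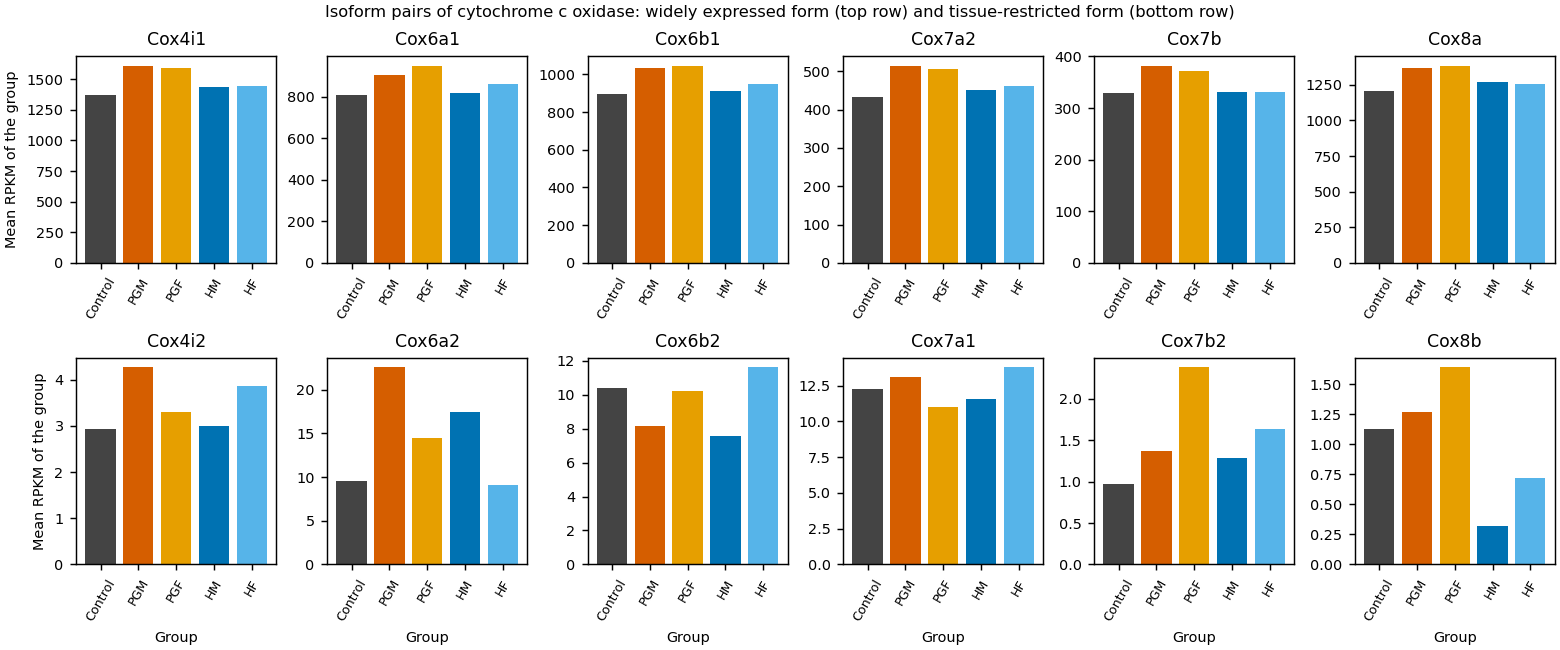
Mean RPKM per group (bars, from 0, each panel with its own axis) for the widely expressed form of 6 cytochrome c oxidase subunits in the upper row and the tissue-restricted form in the lower. The upper panels repeat 1 shape with PGM and PGF highest, whereas each lower panel has its own order of groups, as for Cox6a2 at 22.6 RPKM in PGM and 9.09 in HF.

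Complex V, ATP synthase, uses the proton gradient to make ATP. Its 15 subunits had medians of 0.17, 0.14, 0.04 and 0.08 in PGM, PGF, HM and HF. In PGM and PGF 11 and 9 were at least 1.1-fold higher, against 24.4% and 19.1% of all genes. Atp5b was at 1540, 1785, 1752, 1604 and 1624 RPKM in Control, PGM, PGF, HM and HF. Atp5a1, the alpha subunit that alternates with beta in the head, was at 1042, 1157, 1102, 1042 and 1105. The alpha subunit differed less, by 0.15 in PGM and 0.08 in PGF against 0.21 and 0.19 for beta. Atp5d of the central stalk was at 286, 325, 313, 269 and 287, and the largest difference between PGM and HM among members outside the tissue-restricted isoforms was its 0.27. The membrane-embedded c ring is encoded by Atp5g1, Atp5g2 and Atp5g3, which together summed to 1398, 1594, 1564, 1471 and 1477 RPKM. Atp5j of the peripheral stalk, the lowest of the complex, was at 213, 223, 212, 214 and 204 and stood near Control in PGF.

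The 5 remaining names of the rule were mixed. Atp5sl stood at 0.14, 0.16, 0.06 and 0.08 from Control in PGM, PGF, HM and HF, close to the members' medians, and Atp5s at 0.10 and -0.01 in PGM and PGF. Cox7a2l was at 361, 377, 368, 352 and 384 RPKM, Cox4nb at 31.1, 28.5, 29.4, 31.2 and 31.3, and Ndufa4l2 at 6.55, 5.53, 5.95, 5.34 and 6.61. Their medians were 0.06 in PGM and -0.01 in PGF. The subunits without these names, without the assembly factors and with Uqcr11 counted once, 81 in all, had a median of 0.16 in PGM and 0.14 in PGF, the same to 2 decimals as all 91 names.

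The X chromosome holds 3 members, Ndufa1 and Ndufb11 of complex I and Cox7b of complex IV. Cox7b was at 329, 382, 371, 330 and 331 RPKM, Ndufa1 at 168, 194, 190, 170 and 169, and Ndufb11 at 187, 201, 208, 188 and 189. Their median differences of 0.21, 0.17, 0.006 and 0.02 stood against 0.16, 0.14, 0.03 and 0.08 for the 88 other members. The Y-linked genes of the table, 4 in all, summed to 6.44 RPKM in Control against 78.8, 77.7, 37.3 and 37.7 in PGM, PGF, HM and HF. The Y-linked sums thus also differed between PGM and HM and between PGF and HF. The labels do not give the sex of the mice. Its part was not tested in the comparisons with Control, in those with HF as the reference, or in those between the other groups.

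Comparisons that do not use Control were also made, and members are named in them for the size of a difference where 1 of the groups compared had at least 2 RPKM. Between PGM and PGF the members differed little: 57 were higher in PGM and 34 lower, 62.2% of all genes were higher and 37.4% lower, and the median was 0.02 against 0.03 over all genes. With centred columns 37 members were higher, with upper quartile scaling 30 and after quantile normalization 47, so that the direction rests on the scaling. At least 1.1-fold higher in PGM were 6 members and lower 3, against 16.4% and 9.99% of all genes, and 2 were at least 1.2-fold higher against 4.60%. Cox6a2, Cox4i2 and Cox7a1 were higher in PGM by 0.62, 0.33 and 0.24, and Cox7b2, Cox6b2 and Uqcrq higher in PGF by 0.62, 0.31 and 0.13.

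Between HM and HF, 16 members were higher in HM and 75 lower, against 31.0% and 68.6% of all genes, with a median of -0.05 in the members and in all genes. Centring gave 49 higher members, quantile normalization 39 and upper quartile scaling 30, so this split followed the shift of the whole table. At least 1.1-fold higher in HM were 3 members, Cox6a2 by 0.90, Ndufab1 by 0.23 and Sdha by 0.14, against 7.20% of all genes, and 1 of them by at least 1.2-fold against 2.44%. At least 1.1-fold lower were 7, against 24.5%, with Cox6b2 at -0.58, Cox4i2 at -0.32 and Ndufa4l2 at -0.28 among them.

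PGM against HM and PGF against HF were added after the table was seen, because the codes share their last letter. In PGM against HM, 88 members were higher and 3 lower against a background of 60.8% and 38.8%, and 42 were at least 1.1-fold higher and none lower, against 23.6% and 12.8% of all genes. After quantile normalization 75 were higher. The median was 0.13 in the members and 0.04 in all genes, and after quantile normalization 0.068 in the members. Among members of at least 2 RPKM, Cox4i2 and Cox6a2 led by 0.44 and 0.36, followed by Atp5d, while Cox8b, under that level, differed by 1.11, and the 3 lower members were Cox4nb, Sdha and Ndufc2, at -0.13, -0.03 and -0.02. In PGF against HF, 72 members were higher and 19 lower against a background of 36.5% and 63.2%, with 83 higher after centring and 64 after quantile normalization. The median was 0.07 against -0.05 over all genes, and 18 members were at least 1.1-fold higher and 4 lower, against 13.0% and 30.8%. Cox6a2, Cox7b2 and Cox7c were higher in PGF by 0.64, 0.43 and 0.25, and Cox7a1, Cox4i2 and Cox6b2 lower by -0.31, -0.21 and -0.18.

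Other genes that build or feed the chain were taken from lists. Beside the counts higher than Control below, 50.9%, 44.2%, 39.8% and 58.6% of all genes were higher in PGM, PGF, HM and HF. The 76 proteins of the mitochondrial ribosome, which translates the subunits encoded in the mitochondrial genome, were higher than Control in 68, 63, 44 and 61 in PGM, PGF, HM and HF, with medians of 0.12, 0.09, 0.02 and 0.05. Mrps35 was at 35.7, 47.9, 50.8, 37.0 and 44.0 RPKM in Control, PGM, PGF, HM and HF. The 20 genes of mitochondrial protein import had medians of 0.14, 0.10, 0.02 and 0.06, with 18, 15, 13 and 20 higher. Cytochrome c, the adenine nucleotide carriers and other carriers, 10 genes, had medians of 0.13, 0.11, 0.01 and 0.04. Of these, Slc25a5, an adenine nucleotide carrier, was at 427, 517, 527, 461 and 458 RPKM and the cytochrome c gene Cycs at 133, 153, 146, 138 and 143.

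The 16 genes of the tricarboxylic acid cycle had medians of 0.11, 0.09, 0.001 and 0.05 in PGM, PGF, HM and HF. Higher than Control were 13, 14, 8 and 14, against 50.9%, 44.2%, 39.8% and 58.6% of all genes. Idh3b, a subunit of isocitrate dehydrogenase, was at 248, 320, 310, 287 and 265 RPKM, while Mdh2, malate dehydrogenase, was at 290, 275, 282, 282 and 272, lower than Control in all other groups. Assembly factors and associated proteins outside the rule were mixed. Those of complex I, 7 genes, had medians of 0.08, -0.009, -0.008 and 0.05 in PGM, PGF, HM and HF, those of complex II, 4 genes, 0.06, 0.07, -0.03 and 0.06, and those of complex IV, 20 genes, 0.08, 0.04, 0.01 and 0.02. The 6 genes of complex III had 0.12, 0.17, 0.06 and 0.008, and the 5 of complex V 0.15, 0.03, 0.04 and 0.02, so the values of these short lists reached those of the members in PGF for complex III and came near them in PGM for complex V. Most were below the members in level, but Usmg5, whose product associates with ATP synthase, was at 694, 829, 798, 719 and 755 RPKM and Atpif1, the inhibitor of the ATPase, at 529, 573, 542, 524 and 535. Atpaf1, which assembles the head of ATP synthase, was at 38.8, 56.04, 57.0, 44.8 and 39.5 RPKM, and Ttc19 of complex III was at 73.7, 95.2, 87.9, 78.6 and 75.3.

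**Figure D4:**
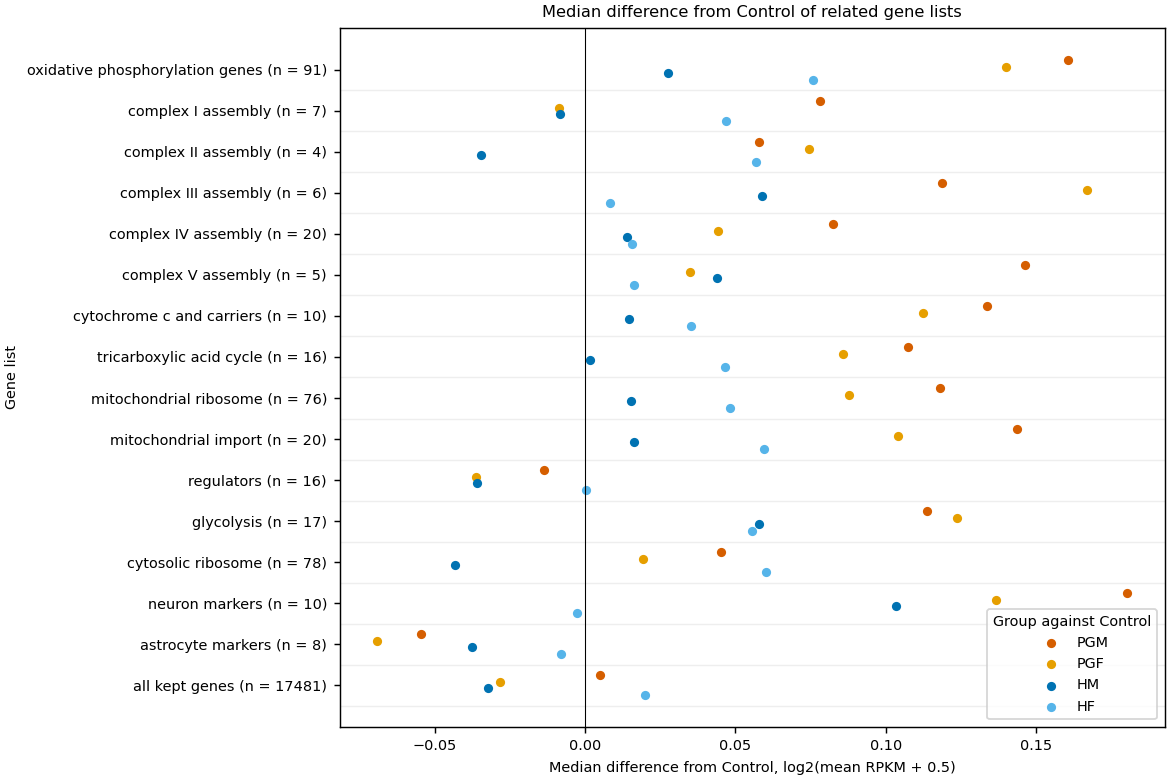
Median difference of log2(mean RPKM + 0.5) from Control of each gene list (rows, with the number of genes) in PGM, PGF, HM and HF (points). The lists of mitochondrial proteins have PGM and PGF to the right of HM and HF in most rows. Regulators and all kept genes lie near 0, and astrocyte markers lie somewhat below 0 in PGM and PGF.

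Regulators of respiratory genes did not differ together. The 16 genes had medians of -0.01, -0.04, -0.04 and 0.0002 in PGM, PGF, HM and HF, with 7, 6, 6 and 8 higher than Control. Of all genes 50.9%, 44.2%, 39.8% and 58.6% were higher, so these counts lay near that share or under it. Esrra, the estrogen-related receptor alpha, an orphan nuclear receptor that acts on respiratory genes, was at 21.0, 32.6, 32.3, 26.3 and 23.7 RPKM in Control, PGM, PGF, HM and HF, or 155%, 154%, 125% and 113% of Control. Its relatives Esrrg and Esrrb were at 18.2, 23.5, 25.4, 22.4 and 19.3 and at 1.40, 1.98, 2.42, 1.70 and 1.58. PGM and PGF were the high groups for all 3 receptors. The coactivators that work with them went the other way: Ppargc1a (PGC-1alpha) was at 19.4, 17.7, 17.7, 18.8 and 18.0, Ppargc1b at 8.39, 7.30, 7.84, 7.14 and 7.64, and Pprc1 at 6.86, 5.63, 6.14, 6.25 and 6.25.

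The other regulators were mixed. Nrf1, the gene of nuclear respiratory factor 1, was at 13.8, 13.0, 13.8, 13.3 and 14.2 RPKM, and Gabpa, the DNA-binding subunit of GABP, at 15.9, 15.6, 15.3, 16.5 and 15.8. Tfam, which packages and transcribes mitochondrial DNA, was at 23.6, 22.8, 22.2, 23.0 and 23.6. Polrmt, the mitochondrial RNA polymerase, was at 17.7, 20.6, 19.7, 18.5 and 18.3, which is 0.21 and 0.15 above Control in PGM and PGF, as far as the members' medians or farther. Yy1 was at 35.5, 33.7, 32.0, 33.1 and 34.2, with PGF lowest. The ranges of Nrf1 and Gabpa were thus of the size of the members' own differences, without their direction.

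Rows with the names of genes of the mitochondrial genome were looked at after values were seen, since their products join those of the members in complexes I, III, IV and V. The row mt-Nd4, of complex I, was at 2777, 2144, 2372, 2379 and 2090 RPKM in Control, PGM, PGF, HM and HF. Cytb, the cytochrome b of complex III, was at 2119, 1771, 1853, 1816 and 1587. Cox2 was at 10409, 9676, 10235, 9895 and 9515. For these 3 rows Control was the high group, opposite to the nuclear members. Ptgs2, which shares the alias Cox2, has a row of its own at 0.56 to 0.70 RPKM. Atpase6, of complex V, was at 7685, 7187, 8329, 8169 and 7367, with PGF and HM above Control. How reads shared with nuclear copies of mitochondrial DNA were treated is unknown.

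**Figure D5:**
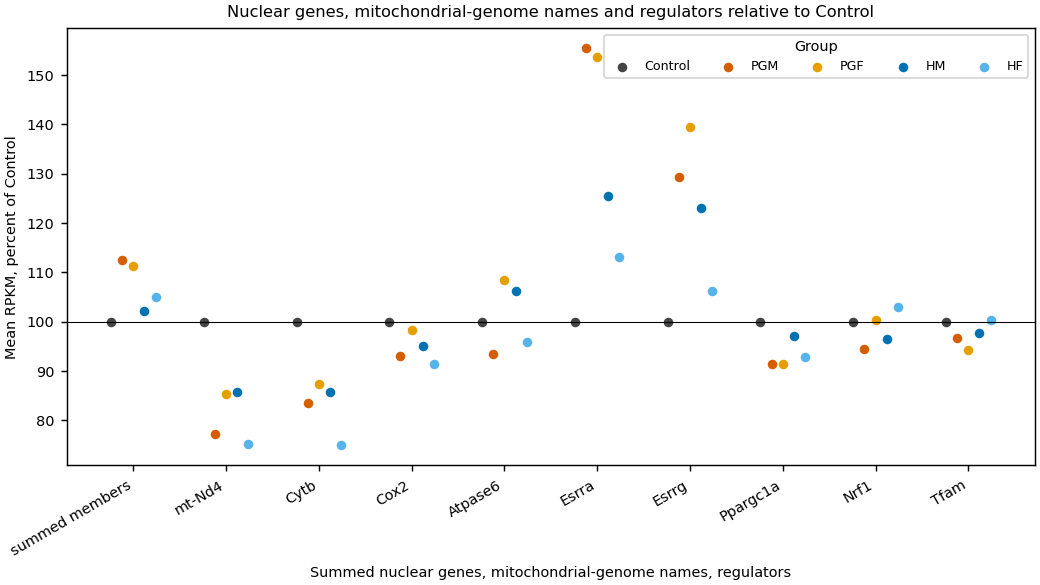
Mean RPKM of each group as a percentage of Control for the summed members, the 4 rows with names of the mitochondrial genome and 5 regulators (points, 1 colour per group). The summed members lie at 113% in PGM and 111% in PGF, mt-Nd4, Cytb and Cox2 lie below 100% in all 4 groups, and Esrra reaches 155% in PGM.

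Markers of other cells and tissues also differed between the groups. Oligodendrocyte markers, 10 genes, summed to 3976, 6546, 7980, 5511 and 4192 RPKM in Control, PGM, PGF, HM and HF, neuron markers to 5052, 5614, 5550, 5270 and 5167, and hypothalamus markers to 1230, 680, 866, 1048 and 1001. Of the last, Pomc, which the pituitary also expresses, was at 370 RPKM in PGF and between 16.1 and 24.3 in the other groups, and without it the sums were 1206, 664, 496, 1025 and 981, with PGF and not PGM lowest. Striatum and cortex markers, 8 genes, summed to 69.6, 145, 120, 85.03 and 88.4, choroid plexus markers, 8 genes, to 35.05, 132, 477, 50.5 and 47.5, and markers of the meninges, 8 genes, to 249, 126, 173, 160 and 277. Astrocyte markers, 8 genes, summed to 1855, 1731, 1761, 1750 and 1793 in Control, PGM, PGF, HM and HF. The synaptic gene Snap25 of the neuron list was at 748, 951, 933, 853 and 767 RPKM, whereas the neuronal nuclear marker Rbfox3 was at 35.7, 34.8, 33.7, 31.1 and 35.0. Erythroid markers summed to 4998, 2822, 3750, 2327 and 4384, and pituitary markers to 73.0, 71.8, 1656, 89.4 and 38.1, with Prl listed at 0 in at least 1 group. PGM and PGF, the groups with higher members, were thus also those with the highest oligodendrocyte, thalamus, striatum and cortex, choroid plexus and neuron sums and the lowest hypothalamus sums, and the part of these in the members' values was not tested. In bulk tissue fewer cells of a type and less RNA per cell cannot be told apart.

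Members have short transcripts at high levels, with a median length of 680 bases against 2261 for kept genes with a known length, so genes of that kind were looked at too. Kept genes outside the pathway with transcripts under 1000 bases, 2465 in number, had median differences from Control of 0.06, 0.03, -0.008 and 0.04 in PGM, PGF, HM and HF, and those of at least 4000 bases, 2807 in number, -0.09, -0.12, -0.08 and -0.01. The 69 members under 1000 bases had 0.15, 0.14, 0.02 and 0.07. Genes outside the pathway with at least 300 RPKM, 497 in number, had 0.06, 0.03, -0.01 and 0.03, and the 40 members at that level 0.17, 0.16, 0.03 and 0.08. In PGM and PGF both classes of other short or abundant genes were higher than the median of all genes and lower than the members of the same class.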

How the data were processed

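Total RNA from 15 hypothalamus samples in 5 groups was sequenced. The submitters' processing notes name FastQC for read quality and Novoalign 2.08 with the build mm10 for alignment. The authors deposited 1 RPKM value per transcript and group, a mean over samples per the file headers, for 49404 transcripts at 2 decimals. The sources used here do not give the counting program, strand, treatment of shared reads or depth.

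Each gene name was given the median of its transcripts (30 members had more than 1). Genes averaging at least 1 RPKM were kept and differences taken between values of log2(mean RPKM + 0.5), which understates those of low genes. A table of means allows no test, so limma was not run. Shares of all kept genes past 1.1- and 1.5-fold stand beside the members' counts. Lengths were known for 14637 kept genes, 83.7%. Of the names in 26 gene lists 5 were not found and 17 were matched by synonym.

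Genes were named by a rule: highest and lowest level in each complex, the 3 largest differences in each direction per comparison with at least 2 RPKM, core and catalytic subunits, isoform pairs, X-linked members, regulators and at most 2 genes of other lists. The values of 1 member are not reported here and its point is left out of the plot of levels by gene, while counts and medians include it. Promoter examples, other genes given as examples and mitochondrial rows were chosen after values were seen. Members and lists were chosen with earlier results of these data known. Calculations were tested on simulated data. Python 3.11.15, numpy 2.4.6, pandas 2.3.3 and matplotlib 3.10.9 were used.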

Additional observations from a re-analysis of the deposited data

How the results depend on the processing

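No paired analysis was possible because the table holds 1 mean per group, and for the same reason leaving out a replicate was not run. Alternatives were pseudocounts of 0.1 and 1, a filter left out or raised to 3 RPKM, other ways to combine transcripts, other scalings, HF as the reference, a 1.2-fold rule and fewer members. Of 193 alternative values of the medians and counts over members 177 stayed close and 16 moved. Close meant by less than 0.05 for a median, which exceeds some of the smaller medians, and within a ratio of 1.5 for a count. With Control as the reference, the median over members ran from 0.11 to 0.16 in PGM and from 0.10 to 0.17 in PGF. In HM it ran from 0.03 to 0.07 and in HF from 0.05 to 0.08. The 0.16 given for PGM is thus the top of its range. No median of at least 1.1-fold changed sign. Smaller medians did: over the settings, PGM minus PGF ran from -0.020 to 0.016 and HM minus HF from -0.047 to 0.0041. Measured from HF and not Control, the median over members was 0.088 for PGM, 0.071 for PGF and -0.046 for HM. Under centring the HM minus HF median was 0.0041, with 49 members higher in HM, 39 after quantile normalization and 30 with upper quartile scaling. For PGM minus PGF 37 were higher after centring and 30 with upper quartile scaling. After quantile normalization the PGM minus HM median was 0.068. At least 1.2-fold higher were 6, 4, 2 and 2 members of PGM, PGF, HM and HF against Control, 2 in PGM minus PGF and 1 in HM minus HF. Depth is unknown, so isoforms near 1 RPKM have no known precision.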

Other observations

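Glycolysis, which supplies pyruvate to the mitochondrion, was also compared. Its 17 genes had median differences from Control of 0.11, 0.12, 0.06 and 0.06 in PGM, PGF, HM and HF. Higher than Control were 13, 14, 11 and 14, against 50.9%, 44.2%, 39.8% and 58.6% of all genes. Ldhb, the lactate dehydrogenase subunit that favours the use of lactate, was at 498, 606, 677, 561 and 548 RPKM in Control, PGM, PGF, HM and HF, while Ldha stayed between 294 and 313. The hexokinase genes went the other way, with Hk1 at 38.0, 32.2, 31.6, 33.7 and 34.4 and Hk2 at 2.67, 2.1, 1.92, 2.23 and 2.38. The enzymes of the pathway therefore did not differ in 1 direction.

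Proteins of the cytosolic ribosome, a large set of short and abundant transcripts like the members, had medians of 0.05, 0.02, -0.04 and 0.06 in PGM, PGF, HM and HF over 78 genes. Higher than in Control were 63, 49, 15 and 74, against 50.9%, 44.2%, 39.8% and 58.6% of all genes. In HM against HF 2 of the 78 were higher and 76 lower, against 31.0% and 68.6% of all genes. The median was -0.10, where the members had -0.05. The 2 exceptions were Rplp2, a stalk protein of the large subunit, at 520, 600, 567, 559 and 540 RPKM in Control, PGM, PGF, HM and HF, and Rps27a, of the small subunit, at 358, 360, 338, 364 and 342. Cytosolic ribosomal genes thus had a different order of groups from the members, with HF rather than PGM and PGF highest in median. The medians of HF and PGM lay close, at 0.06 and 0.05, where those of all genes were 0.02 and 0.005. Other scalings were not tried for this list, so which of these 2 groups was higher is uncertain.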
